A study of Mus musculus with 10 samples.

Results

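A set of 10 imprinted genes with roles in growth before and shortly after birth was followed in the pancreas of KSR23 mice. They are H19, Dlk1, Meg3, Plagl1, Peg3, Mest, Cdkn1c, Grb10, Ndn and Zim1, taken by symbol from a list made with earlier results of these data known. All 10 were found among the 24062 genes of the count tables, and all 10 passed the filter of at least 5 counts in every library, which 13882 genes passed. Pancreas RNA came from 5 WT and 5 KSR23 mice on the C57BL/6 strain at postnatal day 5 (P5), with 1 library per mouse. KSR23 mice carry an IL-23 cassette (R23) and the K14-cre transgene, in which the keratin 14 promoter drives Cre. This promoter is known for its activity in keratinocytes. The labels give the WT mice no allele or transgene, and no mouse an agent. Condition and replicate number were taken from the labels, which do not say from which litters the mice came.

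An imprinted gene is expressed mainly or only from the chromosome inherited from 1 parent, because methylation laid down in the egg or the sperm marks the parental copies. Such genes lie in clusters, and 1 imprinting control region can set the expression of several neighbours in opposite directions. Many of them act on growth of the fetus and the newborn, and their RNA declines in many organs after birth. As background, H19, Meg3, Cdkn1c, Grb10 and Zim1 are expressed mainly from the maternal copy and Dlk1, Plagl1, Peg3, Mest and Ndn mainly from the paternal copy. In an inbred strain, counts per gene do not show from which copy an RNA came, so every value below is the sum over both copies. In RNA of a whole organ, fewer cells of a type and less RNA per cell cannot be told apart.

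The WT libraries held 26830235 to 33189132 gene counts each, and the KSR23 libraries 16715976 to 57784136. The 10 imprinted genes together made up 0.126% to 0.152% of a WT library and 0.129% to 0.142% of a KSR23 library. A count of 3 in a library, used as the floor, equals 0.0536 to 0.168 counts per 1000000 (CPM), while Zim1, the gene with the fewest counts, had at least 144 counts in every mouse. Such floors cover counting error only, because reads copied by PCR were not marked by molecular identifiers. Alignments at more than 1 place, which went to no gene, came to 107 to 126 per 100 counted reads in WT libraries and to 66.7 to 78.7 in KSR23 libraries. Between 99.5% and 100% of the 75-base windows of each of the 10 genes' longest transcripts occur in no other annotated gene. The pancreas label was checked with 8 acinar marker genes, whose sum was 157000 to 168000 CPM for WT and 105000 to 132000 CPM for KSR23 pancreas.

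The sequences upstream of Plagl1, Mest and Grb10, which fell, and of Dlk1, which rose, are shown first, since imprinted regions are known for CpG-rich stretches that can carry methylation. Of the 10 genes, 8 have a RefSeq promoter entry on GRCm38.p6, and no promoter is shown for H19 or Cdkn1c. Each line gives the 250 bases before the start of the transcript, on the gene's strand, with CG dinucleotides in capitals. For a gene with several starts, the start with most CG dinucleotides was taken, which concerned Mest (3 starts), Grb10 (2 starts) and Meg3 (2 starts). The windows are Plagl1 at chr10:13090582-13090831 (plus strand), Mest at chr6:30737800-30738049 (plus strand), Grb10 at chr11:12037421-12037670 (minus strand) and Dlk1 at chr12:109452573-109452822 (plus strand).
Plagl1: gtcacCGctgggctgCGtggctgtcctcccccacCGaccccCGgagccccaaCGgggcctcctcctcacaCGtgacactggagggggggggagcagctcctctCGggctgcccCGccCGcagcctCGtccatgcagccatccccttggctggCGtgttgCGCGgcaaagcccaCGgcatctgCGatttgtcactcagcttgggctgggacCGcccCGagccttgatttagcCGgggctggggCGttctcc
Mest: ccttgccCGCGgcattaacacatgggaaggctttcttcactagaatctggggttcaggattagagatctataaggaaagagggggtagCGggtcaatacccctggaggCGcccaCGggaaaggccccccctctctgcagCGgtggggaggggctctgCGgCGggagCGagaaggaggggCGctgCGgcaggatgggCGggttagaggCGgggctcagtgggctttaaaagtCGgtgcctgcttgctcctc
Grb10: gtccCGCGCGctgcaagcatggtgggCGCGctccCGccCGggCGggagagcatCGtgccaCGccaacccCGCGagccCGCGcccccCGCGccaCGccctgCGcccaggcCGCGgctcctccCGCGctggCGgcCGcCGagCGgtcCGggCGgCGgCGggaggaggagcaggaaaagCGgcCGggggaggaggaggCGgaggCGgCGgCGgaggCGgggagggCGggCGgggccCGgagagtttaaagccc
Dlk1: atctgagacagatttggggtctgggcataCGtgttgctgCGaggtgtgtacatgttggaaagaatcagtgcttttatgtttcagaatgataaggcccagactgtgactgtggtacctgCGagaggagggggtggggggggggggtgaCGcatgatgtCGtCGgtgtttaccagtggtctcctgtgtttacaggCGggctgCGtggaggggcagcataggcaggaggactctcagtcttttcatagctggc

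Over 32851 RefSeq promoter windows of this length the median was 6 CG dinucleotides. The Grb10 window shown held 40, more than 98.7% of all windows, but the window at the other Grb10 start held 8, more than 57.0%. Plagl1 held 19 and Mest 14, more than 80.3% and 70.6% of the windows, with 14 and 7 at the other Mest starts. Dlk1 held 8. Of the genes not called, Zim1 held 14, Meg3 10 at the start taken and 0 at the other, Peg3 8 and Ndn 5, so that the CG counts of called and other genes overlapped. The letters GCCATNTT, the core of the YY1 site, and TATAAA, the TATA box, were searched on both strands of the 8 windows, 1 per gene. GCCATNTT, held by 3.91% of all windows, was found in none of the 8. TATAAA, held by 12.4% of all windows, was found at 2 overlapping positions on opposite strands of the Meg3 window at the start taken and in no other, the window at the other Meg3 start included. Methylation was not measured in these libraries.

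Of the 10 imprinted genes, Plagl1, Mest, Cdkn1c and Grb10 fell in KSR23 pancreas and Dlk1 rose, by edgeR's quasi-likelihood F test with Benjamini-Hochberg adjustment over all 13882 genes. The other 5 did not pass this test at an adjusted p under 0.05. The same test called 31.0% of all genes, 16.2% higher and 14.8% lower in KSR23 mice, beside 5 of the 10 imprinted genes. These were 2250 higher and 2049 lower genes, and 3075 and 1161 with library size alone, under which 3 of the 10 imprinted genes were higher and 3 lower. The median log2 fold change (FC) of the 10 genes was -0.15 against -0.01 over all genes tested. Summed, they gave 1430 ± 67 CPM for WT and 1320 ± 43.1 CPM for KSR23 mice (SD, n = 5 each), with ranges of 1350 to 1520 and 1250 to 1370 CPM that overlap. CPM values were scaled between libraries by the TMM method of edgeR. All 5 called genes changed by less than the 0.48 that was the median size of the log2 FC among called genes.

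**Figure D1:**
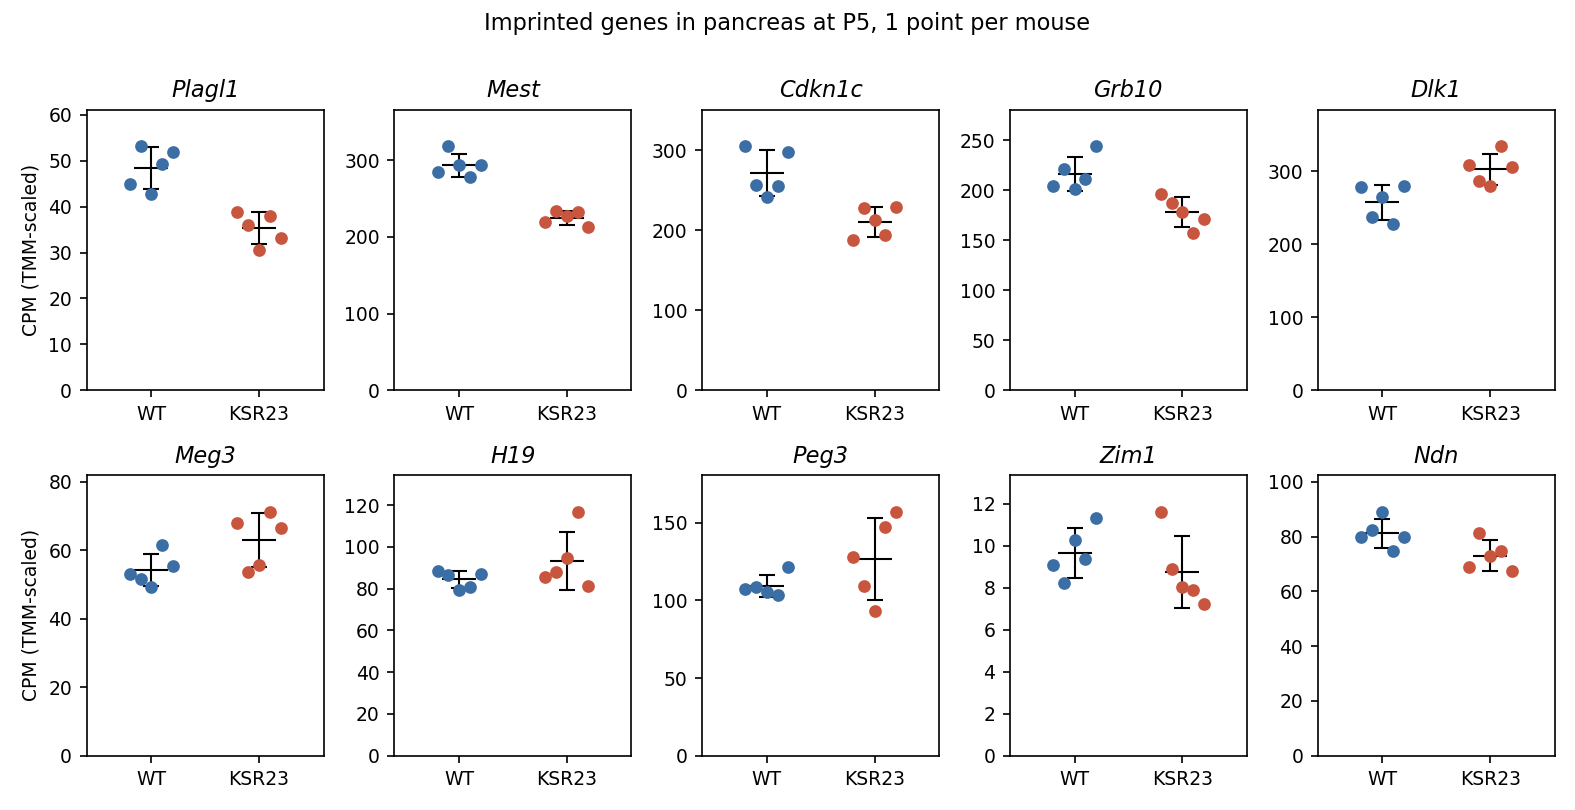
CPM (TMM-scaled, linear axis from 0) of the 10 imprinted genes in each WT mouse (blue) and KSR23 mouse (red), with the mean and SD of 5 mice. For Plagl1, Mest, Cdkn1c and Grb10 all 5 KSR23 points lie below all WT points, and in Dlk1 the lowest KSR23 point lies at the level of the highest WT point, 279.6 CPM.

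Plagl1 encodes a zinc-finger transcription factor that restrains proliferation and regulates other imprinted genes. Its level was 45.0, 53.2, 42.7, 49.3 and 52.0 CPM in WT mice 1 to 5 and 38.9, 35.9, 30.5, 38.0 and 33.3 CPM in KSR23 mice 1 to 5. Every KSR23 mouse lay below every WT mouse. The fitted level fell by 26.9% and the mean went from 48.4 ± 4.48 to 35.3 ± 3.45 CPM (SD, n = 5 each), with a log2 FC of -0.45 ± 0.0831 (SE, 95% confidence interval -0.63 to -0.28, adjusted p = 0.000467, edgeR quasi-likelihood test), the largest change among the 10. The gene spans chr10:13060504-13131694 on the plus strand of GRCm38.

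Mest encodes a protein of the endoplasmic reticulum with an alpha/beta hydrolase fold and is known for high expression in growing mesoderm-derived tissue. It reached 284, 318, 293, 278 and 293 CPM in the WT mice and 220, 234, 227, 232 and 212 CPM in the KSR23 mice. The groups were apart, with the highest KSR23 mouse at 233.8 CPM and the lowest WT mouse at 277.5 CPM. The log2 FC was -0.38 ± 0.0603 (SE, adjusted p = 0.000103, edgeR quasi-likelihood test), from 293 ± 15.3 to 225 ± 9.02 CPM (SD, n = 5 each). Mest lies at chr6:30723547-30748465 on the plus strand, and 912 bases of its exons, or 23.1% of their merged length, overlap exons of Copg2 on the other strand. Copg2 fell as well, and the strand setting of the counting is not given in the sources used here, so the shared bases cannot be assigned to either gene.

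Cdkn1c encodes p57Kip2, an inhibitor of cyclin-dependent kinases that holds cells out of the cell cycle. WT mice had 305, 256, 242, 256 and 298 CPM and KSR23 mice 187, 228, 213, 194 and 229 CPM. The groups did not overlap, but the gap between the lowest WT mouse (241.5 CPM) and the highest KSR23 mouse (228.6 CPM) was smaller than the SD of either group. The fitted level fell by 22.5% and the mean went from 271 ± 28.2 to 210 ± 19 CPM (SD, n = 5 each; log2 FC -0.37 ± 0.0797 SE, adjusted p = 0.00189, edgeR quasi-likelihood test). The gene lies at chr7:143458339-143461050 on the minus strand. The annotation used here places an antisense gene, Gm44732, over 625 bases of its exons (30.7%), but no gene of that name was among those counted.

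Grb10 encodes an adaptor protein that binds the insulin and IGF-1 receptors and dampens their signal. It was at 204, 221, 201, 211 and 244 CPM in WT mice and at 196, 187, 178, 157 and 172 CPM in KSR23 mice. KSR23 mouse 1, at 196.3 CPM, came closest to the WT range, which began at 201.3 CPM. The log2 FC was -0.28 ± 0.0728 (SE, adjusted p = 0.00704, edgeR quasi-likelihood test), from 216 ± 17.2 to 178 ± 15.0 CPM (SD, n = 5 each). With library size alone in place of TMM the log2 FC was -0.19 and the adjusted p 0.105, so that the call depended on the scaling. Grb10 spans chr11:11930508-12038683 on the minus strand.

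Dlk1, a transmembrane protein of the Delta family that holds back differentiation of preadipocytes and other progenitors, was the only one of the 10 called higher. WT mice had 278, 237, 264, 228 and 280 CPM, and KSR23 mice had 309, 287, 280, 334 and 305 CPM. WT mouse 5 and KSR23 mouse 3 were at the same level to 4 digits (279.6 CPM). The fitted level rose by 17.7% and the mean went from 257 ± 23.9 to 303 ± 21.3 CPM (SD, n = 5 each; log2 FC 0.24 ± 0.0732 SE, adjusted p = 0.0207, edgeR quasi-likelihood test). The call was lost without WT mouse 2 (adjusted p = 0.0589), without WT mouse 4 (adjusted p = 0.0716) and without KSR23 mouse 4 (adjusted p = 0.0692, same edgeR test). The gene lies at chr12:109452823-109463336 on the plus strand.

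In these 5 genes the exact 2-sided permutation test on log2 CPM, in which every way to divide the 10 mice was tried, gave the smallest p it can give, 0.00794, without adjustment. Groups without overlap were seen for 19.4% of all genes tested, 10.7% with KSR23 above and 8.74% with KSR23 below, beside 1 and 4 of the 10 imprinted genes.

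**Figure D2:**
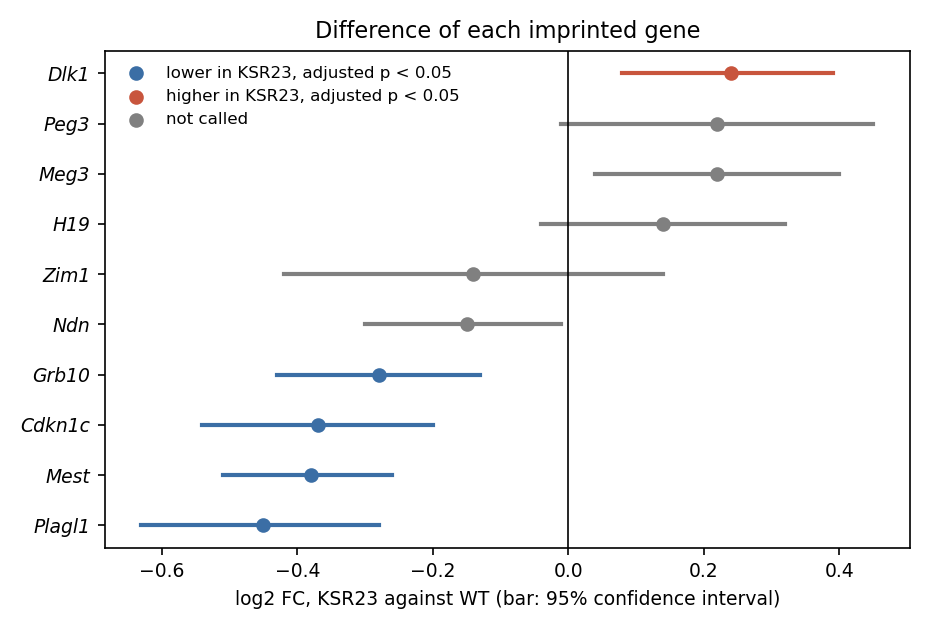
Log2 FC of KSR23 against WT mice for the 10 imprinted genes (points) with 95% confidence intervals (bars), from edgeR's quasi-likelihood fit on 5 against 5 mice. Blue and red mark genes lower and higher in KSR23 mice at an adjusted p under 0.05 and grey marks the rest. The points run from -0.45 for Plagl1 to 0.24 for Dlk1.

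The other genes were not called, and their intervals show what sizes remain possible. Meg3, a long non-coding RNA of the Dlk1 cluster, was at 53.1, 51.8, 49.4, 61.7 and 55.4 CPM in WT mice and at 68.0, 53.6, 55.7, 71.3 and 66.6 CPM in KSR23 mice. KSR23 mice 1, 4 and 5 were above all WT mice, while KSR23 mice 2 and 3 lay within the WT range. The log2 FC was 0.22 (95% confidence interval 0.04 to 0.40) with an adjusted p of 0.0645 by edgeR's quasi-likelihood test. It passed the threshold with library size alone (log2 FC 0.31, adjusted p = 0.013), without WT mouse 4 (adjusted p = 0.0378), without KSR23 mouse 2 (adjusted p = 0.0232) and without KSR23 mouse 3 (adjusted p = 0.033, same edgeR test).

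Peg3 encodes a large zinc-finger protein with roles in growth and maternal behaviour. WT mice had 107, 108, 105, 103 and 122 CPM, with mouse 5 above a narrow group of the others. KSR23 mice ran from 93.0 to 157 CPM (128, 109, 93.0, 147 and 157 CPM), so that the highest and the lowest of the 10 mice were both KSR23 mice. The SD was 7.2 CPM in WT and 26.4 CPM in KSR23 mice, and the log2 FC of 0.22 (95% confidence interval -0.01 to 0.45) had an adjusted p of 0.137 by edgeR's quasi-likelihood test. Without KSR23 mouse 3, the library of fewest counts, it was 0.31 with an adjusted p of 0.0136, and with library size alone it was 0.31 with an adjusted p of 0.0372 (same edgeR test). Zim1, an imprinted zinc-finger gene 7.44 kb from Peg3, was the lowest of the 10 at 7.23 to 11.6 CPM. Its log2 FC was -0.14 with the widest interval of the 10, -0.42 to 0.14, and the highest of all mice was KSR23 mouse 1.

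H19, a long non-coding RNA that is among the most abundant transcripts of fetal tissues, was at 79.4 to 88.2 CPM in WT mice. In KSR23 mice it was at 85.5, 87.7, 94.6, 117 and 81.2 CPM, so that KSR23 mice 3 and 4 alone exceeded all WT mice. The log2 FC was 0.14 (95% confidence interval -0.04 to 0.32, adjusted p = 0.22, edgeR quasi-likelihood test). Ndn encodes necdin, a MAGE-family protein of neurons and mesenchyme that restrains growth. It was at 74.6 to 89.1 CPM in WT, against 67.3 to 81.5 CPM in KSR23 mice, with a log2 FC of -0.15 (95% confidence interval -0.30 to -0.01, adjusted p = 0.107). Without KSR23 mouse 2 the Ndn log2 FC was -0.19 and passed (adjusted p = 0.0478, same edgeR test).

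Levels between genes were compared per kilobase of merged exons. In WT pancreas the order was Cdkn1c (133 ± 13.8 CPM per kb), Mest (74.3 ± 3.88), Dlk1 (45.5 ± 4.22), H19 (34.3 ± 1.62), Grb10 (23.8 ± 1.89), Ndn (22.0 ± 1.43), Peg3 (8.19 ± 0.538), Plagl1 (6.19 ± 0.573), Meg3 (3.0 ± 0.26) and Zim1 (1.19 ± 0.146), as mean CPM per kb ± SD of 5 mice. The only neighbours in this order whose WT ranges overlapped were Grb10 (22.1 to 26.8 CPM per kb) and Ndn (20.2 to 24.1). In KSR23 mice Mest at 57.0 ± 2.29 CPM per kb and Dlk1 at 53.5 ± 3.77 CPM per kb had overlapping ranges, 53.8 to 59.3 and 49.4 to 59.1. The order depends on the length used: with the longest transcript in place of merged exons, a choice made after the data were seen, Grb10 at 42.7 CPM per kb came before H19 at 36.9 CPM per kb in WT mice.

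Several of the 10 genes host microRNAs, whose mature forms these oligo-dT primed libraries did not measure. They are shown to mark what else is made from the transcripts of Mest, which fell, and of H19 and Meg3, which were not called. The sequences are from RefSeq on GRCm38.p6, 5′ to 3′, with the seed (bases 2 to 8) in capitals. No seed is shared among them.
miR-335-5p, in a Mest intron: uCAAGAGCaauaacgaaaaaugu
miR-335-3p, in a Mest intron: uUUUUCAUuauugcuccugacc
miR-675-5p, in an H19 exon: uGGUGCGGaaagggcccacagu
miR-675-3p, in an H19 exon: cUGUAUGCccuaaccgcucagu
miR-770-5p, in a Meg3 exon: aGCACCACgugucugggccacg
miR-770-3p, in a Meg3 exon: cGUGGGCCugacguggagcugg
miR-1906, in a Meg3 exon: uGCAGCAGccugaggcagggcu

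The neighbours of these genes in the same imprinted clusters were then examined. Of 26 listed neighbours, 20 were tested, of which 3 were higher, 6 lower and 11 not called in KSR23 mice by edgeR's quasi-likelihood test. Their median log2 FC was 0.08, against -0.01 over all genes, of which 16.2% were higher and 14.8% lower. Rtl1, Dio3, Zim3, Snrpn and Snurf were listed but had too few counts, and Zim2 was not analysed here. Snrpn and Snurf share a transcript, and reads that fit both gene models would be given to neither. Their low counts therefore need not reflect their RNA level.

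The cluster around Cdkn1c held changes in both directions. Kcnq1ot1, the paternally expressed antisense RNA that silences neighbours on its own chromosome, was at 28.3, 35.9, 36.4, 35.9 and 32.2 CPM in WT mice and at 18.97, 26.9, 19.9, 17.1 and 16.1 CPM in KSR23 mice. It fell without overlap (log2 FC -0.77 ± 0.119 SE, adjusted p = 8e-05, edgeR quasi-likelihood test), as Cdkn1c did, 162.0 kb away. Ascl2, a transcription factor gene of the cluster, also fell (log2 FC -0.89, adjusted p = 0.00243). In contrast, 3 other genes of this cluster rose.

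Kcnq1, a potassium channel gene within which Kcnq1ot1 starts, was at 26.1, 23.3, 21.6, 21.5 and 25.6 CPM in WT and at 52.6, 35.3, 42.9, 52.4 and 51.7 CPM in KSR23 mice. Its log2 FC was 0.99 ± 0.105 (SE, adjusted p = 9.82e-07, edgeR quasi-likelihood test). Slc22a18, a transporter gene, rose from 3.24 ± 0.474 to 6.91 ± 0.616 CPM (SD, n = 5 each; log2 FC 1.09, adjusted p = 9.27e-06, edgeR), also without overlap. Phlda2, known for limiting growth of the placenta, was low in both groups, at 0.343 to 1.04 CPM in WT and 0.830 to 2.0 CPM in KSR23 mice, and its log2 FC was 1.25 (adjusted p = 0.00702, edgeR). Exons of Kcnq1 and Kcnq1ot1 overlap on opposite strands over 121 bases, 2.96% of the Kcnq1 exons. Kcnq1ot1 is annotated as 1 exon of 93.1 kb within the span of Kcnq1. As the strand setting of the counting is not given, reads from Kcnq1 introns may be among the Kcnq1ot1 counts, which was not tested. Beside these 3 genes, the summed level of 6 duct marker genes was 931 to 1040 CPM in WT mice and 1540 to 1700 CPM in KSR23 mice. Of the 6, 5 were called higher, as were 16.2% of all genes. The part of this shift in the rise of Kcnq1, Slc22a18 and Phlda2 was not tested.

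Igf2, the growth factor gene 72.6 kb from H19, is paternally expressed. It was at 265, 220, 242, 231 and 253 CPM in WT mice and at 214, 231, 197, 205 and 166 CPM in KSR23 mice, with groups that overlapped through KSR23 mouse 2. The log2 FC was -0.26 ± 0.0804 (SE, adjusted p = 0.0211, edgeR quasi-likelihood test). The call was lost with library size alone (log2 FC -0.16, adjusted p = 0.184), without WT mouse 1 (adjusted p = 0.0558) and without KSR23 mouse 5 (adjusted p = 0.0542, same edgeR test). The annotation used here also holds a read-through gene, Gm49394, that shares 3596 bases (62.8%) of the Igf2 exons on the same strand, and only 24.2% of the Igf2 windows are unique. Reads were counted by strict intersection with the gene models, and no gene named Gm49394 was among those counted.

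In the other clusters, Rian, a non-coding RNA downstream of Meg3 that hosts small nucleolar RNAs, fell from 6.12 ± 1.13 to 3.35 ± 0.529 CPM without overlap (SD, n = 5 each; log2 FC -0.86, adjusted p = 0.000533, edgeR). Dlk1 and Meg3 on either side of their shared intergenic region, 77.7 kb apart, had log2 FC of 0.24 and 0.22. Copg2, a coatomer subunit gene beside Mest, fell from 21.6 ± 2.06 to 14.7 ± 2.31 CPM (SD, n = 5 each; log2 FC -0.55, adjusted p = 0.000738, edgeR). Ddc, the gene of aromatic amino acid decarboxylase next to Grb10, fell most of all neighbours tested, from 87.5 ± 3.25 to 35.2 ± 9.07 CPM (SD, n = 5 each; log2 FC -1.32, adjusted p = 2.24e-07, edgeR). Of 9 endocrine marker genes, some of whose cells make Ddc, 6 were lower and 1, Ppy, higher, beside 14.8% and 16.2% of all genes. Their summed level was 8260 to 11500 CPM in WT and 5130 to 6480 CPM in KSR23 mice, and their part in the Ddc value was not tested. Around Ndn and Peg3 no tested neighbour was called, but Snrpn, Snurf, Zim2 and Zim3 were not tested.

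**Figure D3:**
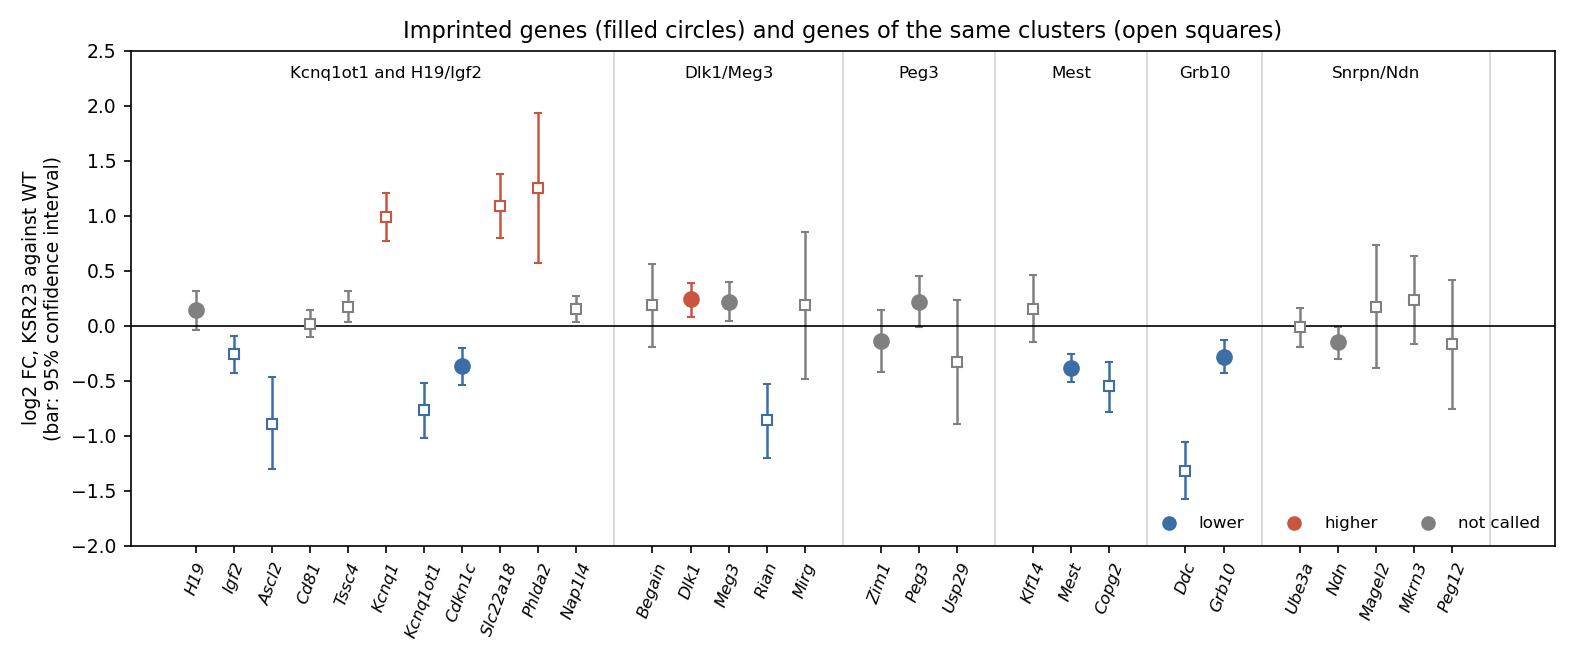
Log2 FC of KSR23 against WT mice with 95% confidence intervals (bars), grouped by cluster. Filled circles are the imprinted genes, Plagl1 apart, and open squares the tested genes of the same clusters. Blue is lower, red higher and grey not called at an adjusted p under 0.05. Around Kcnq1ot1 the values run from -0.89 for Ascl2 to 1.25 for Phlda2, with Cdkn1c at -0.37.

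Neighbouring genes of opposite parental expression were also compared as a ratio within each library, which does not depend on the scaling between libraries. The log2 ratio of H19 to Igf2 counts was -1.59, -1.35, -1.61, -1.51 and -1.54 for WT mice 1 to 5 and -1.32, -1.39, -1.06, -0.81 and -1.03 for KSR23 mice 1 to 5. All but KSR23 mouse 2 were above every WT mouse. The difference was 0.39 (exact 2-sided permutation p = 0.0159, adjusted over 3 ratios p = 0.0476), and with 1 mouse left out in turn it was 0.32 to 0.46, with adjusted exact p of 0.0238 to 0.119. It was past the threshold in 3 of these 10 fits, those without KSR23 mouse 1, 2 or 3. The adjusted exact p was 0.0714 without WT mouse 2, KSR23 mouse 4 or KSR23 mouse 5 and 0.119 without WT mouse 1, 3, 4 or 5.

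The ratio of Meg3 to Dlk1, by contrast, averaged -2.24 ± 0.219 for WT and -2.27 ± 0.1 for KSR23 mice (log2, SD, n = 5 each). The difference of -0.03 was within the spread of either group (exact permutation p = 0.849, adjusted 0.849). The ratio of Zim1 to Peg3 was -3.50 ± 0.138 in WT and -3.84 ± 0.447 in KSR23 mice (exact permutation p = 0.167, adjusted 0.25). KSR23 mice 4 and 5, at -4.21 and -4.43, were below all WT mice, and KSR23 mice 1, 2 and 3 were within the WT range.

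**Figure D4:**
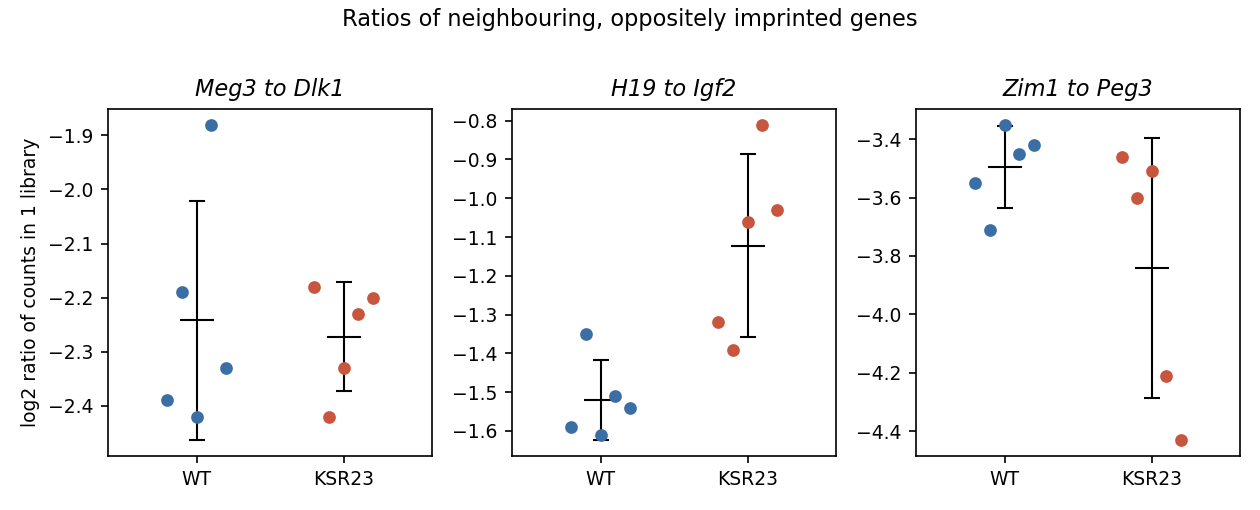
Log2 ratio of counts of neighbouring, oppositely imprinted genes in each library, with the mean and SD of 5 mice; the axes do not start at 0 and differ between panels. For H19 to Igf2 the WT mean is -1.52 and the KSR23 mean -1.12, while for Meg3 to Dlk1 the means are -2.24 and -2.27.

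Imprinted genes of other clusters were listed as well. Of 27, 23 were tested, and 3 were higher, 6 lower and 14 not called (edgeR quasi-likelihood test), with a median log2 FC of -0.14. Over all genes 31.0% were called, and with 9 of 23 called nothing particular to these genes is read from the count. Zdbf2 fell by 0.83 and Peg10, a gene derived from a retrotransposon, fell by 0.82 on the log2 scale (adjusted p = 0.00411 and 0.00816, edgeR), both without overlap. Rasgrf1, an exchange factor for Ras, rose from 1.04 ± 0.316 to 1.81 ± 0.35 CPM (SD, n = 5 each; log2 FC 0.80, adjusted p = 0.0211, edgeR). Its call was lost without WT mouse 3 (adjusted p = 0.0543), WT mouse 5 (0.0539) or KSR23 mouse 1 (0.0607). The count of called genes in this list fell from 9 to 5 without WT mouse 1, WT mouse 5 or KSR23 mouse 1.

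Enzymes and DNA-binding proteins known to set, keep or erase methylation at imprinted regions were listed as well. Of 11 tested, 5 fell, 6 were not called and 0 rose, with a median log2 FC of -0.29. Over all genes 14.8% were lower and 16.2% higher, and with library size alone 3 genes of this list were called. The 5 were the demethylation enzymes Tet1, Tet2 and Tet3 and the de novo methyltransferases Dnmt3a and Dnmt3b, so that enzymes of opposite action fell together. Tet1 fell from 6.69 ± 1.7 to 3.397 ± 0.349 CPM (SD, n = 5 each; log2 FC -0.97, adjusted p = 0.00023, edgeR) and Tet2 by 0.55 on the log2 scale (adjusted p = 0.00193, edgeR), both without overlap. Dnmt3b, at -0.61 (adjusted p = 0.0184), was lost with library size alone (log2 FC -0.51, adjusted p = 0.0568) and without WT mouse 3 (0.0523) or KSR23 mouse 5 (0.0519, same edgeR test). Zfp57, Zfp445, Trim28, Ctcf, Uhrf1 and the maintenance methyltransferase Dnmt1 were not called.

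Among relatives and binding partners of the 10 genes, 2 of 12 tested rose, 1 fell and 9 were not called, with a median log2 FC of 0.02. Over all genes 16.2% were higher and 14.8% lower. Igf2bp2, which binds Igf2 mRNA, rose from 25.9 ± 3.6 to 41.7 ± 4.37 CPM without overlap (SD, n = 5 each; log2 FC 0.69, adjusted p = 2.94e-05, edgeR). Grb7, of the same adaptor family as Grb10, rose (log2 FC 0.40, adjusted p = 0.0146, edgeR), in the opposite direction to Grb10. Cdkn1b, the relative of Cdkn1c that encodes p27Kip1, fell by 0.59 on the log2 scale (adjusted p = 0.0299, edgeR), but 6 of the 10 fits without 1 mouse (all but those without WT mouse 2 or KSR23 mouse 1, 2 or 3) gave an adjusted p of 0.0524 to 0.0752, and library size alone one of 0.0873. The insulin and IGF-1 receptor genes Insr and Igf1r, whose signal Grb10 dampens, were not called.

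Cell cycle genes were listed beside the cell cycle inhibitor Cdkn1c. Of 12 tested, 8 were lower, 0 higher and 4 (Mcm2, Mcm5, Rrm2 and Aurka) not called by edgeR's quasi-likelihood test, which called 14.8% of all genes lower, with a median log2 FC of -0.42. Mki67 was at 47.7 to 60.6 CPM in WT mice and at 23.7, 37.3, 48.8, 23.4 and 23.5 CPM in KSR23 mice (log2 FC -0.78, adjusted p = 0.00152, edgeR). Ccna2 fell by 0.57 and Top2a by 0.53 on the log2 scale (adjusted p = 0.00868 and 0.00542, edgeR). In none of the 12 were the groups apart: KSR23 mouse 3 was within or above the WT range, and the list summed to 476 to 522 CPM in WT, against 291 to 560 CPM in KSR23 mice. Without WT mouse 4, KSR23 mouse 1 or KSR23 mouse 4 the count of called genes was 5 in place of 8.

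The cell types that hold most RNA of these imprinted genes were not separated here, so marker lists are given beside the results. Over all genes tested 16.2% were higher and 14.8% lower in KSR23 mice. Mesenchyme markers, of cells known for Dlk1, Mest, Peg3 and H19 RNA, were lower for 4 of 11 (Lum, Postn, Mfap5 and Dpt), higher for 1 (Pdgfrb) and not called for 6, with sums of 9040 to 11200 CPM in WT and 7970 to 10400 CPM in KSR23 mice. Of 8 acinar markers 6 were lower and 0 higher. Endocrine markers, given above beside Ddc, were lower for 6 and higher for 1 of 9 (8260 to 11500 and 5130 to 6480 CPM). Duct markers, also given above, were higher for 5 and lower for 0 of 6 (931 to 1040 and 1540 to 1700 CPM). Endothelium markers were higher for 3 and lower for 2 of 7 (324 to 336 and 345 to 387 CPM), mesothelium markers lower for 1 of 5 (289 to 342 and 259 to 318 CPM), and neural crest and glia markers not called for all 6 (9.22 to 13.9 and 10.4 to 14.8 CPM). Leukocyte markers were higher for 6 and lower for 1 of 9 tested, with sums of 89.0 to 98.9 CPM in WT and 120 to 293 CPM in KSR23 mice. Of 6 adipocyte markers 2 had enough counts, Fabp4 was lower, and the list summed to 91.0 to 135 CPM in WT and 35.5 to 62.3 CPM in KSR23 mice. Lep, with too few counts for the test, had 13, 9, 23, 0 and 10 counts in WT mice and 0 in all KSR23 mice. The part of these shifts in the values of the 10 genes was not tested.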

How the data were processed

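Pancreas RNA of 5 WT and 5 KSR23 mice was analyzed, 1 library per mouse, grouped by the labels. cDNA was made by the authors from oligo-dT primed RNA with the SMART-Seq v4 kit, and Nextera XT libraries were read as single 75-base ends. The submitters' processing notes name FastQC, TopHat2 2.1.0, HTSeq 0.6.1p1 and edgeR 3.18.1 and the build mm10. The deposited values are counts per gene of reads aligned at 1 place, by strict intersection with the gene models, as counted and not normalized. The annotation and strand setting of the counting are not given in the sources used here. PCR copies were counted as separate reads, and rows that tally reads given to no gene were kept out of library sizes: per 100 counted reads, ambiguous reads came to 1.26 to 1.37 in WT and 0.906 to 1.13 in KSR23 libraries. Reads that matched no gene model came to 5.86 to 6.88 in WT and 5.19 to 5.79 in KSR23 libraries, per 100 counted reads.

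The tests used the genes that had 5 or more counts in each of the libraries, with TMM scaling. Groups were compared with edgeR 4.0.16's quasi-likelihood F test in R 4.3.3, with genotype alone and Benjamini-Hochberg adjustment over all genes tested (threshold 0.05). The SE of a log2 FC came from its F statistic. Single genes and within-library log2 ratios (prior count 2) were compared with an exact 2-sided permutation test that enumerated the divisions of the 10 mice. The edgeR test was checked on simulated counts with changes put into genes taken at random. It found 5 of 73 genes (6.85%) changed 1.2-fold, 38 of 64 changed 1.5-fold and 55 of 62 changed 2-fold. Of its 105 calls 6.67% were false. Far fewer genes were changed in the simulation than were called in the data (4299), which makes the adjusted threshold stricter. These rates therefore do not give the share of changes found, or of false calls, in the data. No library is a copy of another: a chi-square test of the counts gave at least 11.4 per degree of freedom for any pair within a group. Where nothing in the labels says that mice came from separate litters, p-values measure the spread between these 10 libraries. Gene models are GENCODE M21 on GRCm38 (mm10), and promoters and miRNAs are from RefSeq.

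The members and gene lists were chosen with earlier results of these data known. Named genes are the 10 members, Igf2, every called cluster neighbour and, of each further list without cell type markers, the 3 called genes with the largest change. Further names, such as Tet3, Dnmt3a and the genes not called, were chosen after their values were seen. Lists were cluster neighbours, imprinted genes elsewhere, imprint control, relatives and partners, cell cycle genes and 9 marker lists (mesenchyme, mesothelium, endothelium, endocrine, acinar, duct, adipocyte, neural crest and glia, leukocyte). As alternatives, RLE size factors, total counts (library size alone) and total counts less the 50 highest genes replaced TMM. DESeq2 1.42.0 and the likelihood ratio test replaced the main test, and no filter or a minimum of 10 counts replaced the main filter. A prior count of 0.5, a replicate block and fits that left out 1 mouse at a time were also run.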

Additional observations from a re-analysis of the deposited data

Results flagged for a closer look

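Among 68 groups of 5 mice examined, 1 held a mouse far from the others: the Peg3 level in WT mouse 5 was 121.5 CPM, against 103.3 to 108.4 CPM in the other WT mice. Chance alone marks about 1 in 20 groups in this way, or 3.4 of 68.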

How the results depend on the processing

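Plagl1, Mest and Cdkn1c were called lower in all 18 alternative fits, and Grb10 in all but that with library size alone, where 3 of the 10 imprinted genes were lower and 3 higher (Dlk1, Meg3 and Peg3). That scaling moved the median log2 FC of all genes from -0.00563 to 0.0869 and the split of all calls from 2250 higher and 2049 lower to 3075 and 1161, and gave 5 calls among imprinted genes elsewhere, 3 among imprint control genes and 5 among cell cycle genes. With 1 mouse left out, those of the 10 called higher ranged from 0 (without WT mouse 2 or KSR23 mouse 4) over 2 (without KSR23 mouse 2) to 3 (without KSR23 mouse 3), the imprinted genes elsewhere from 5 to 8, the cell cycle genes from 5 to 10, and all genes called from 3497 to 4173. The H19 to Igf2 difference ranged from 0.32 to 0.46. That of Meg3 to Dlk1 ranged from -0.07 to 0.06, turning above 0 without WT mouse 4 (0.06) or KSR23 mouse 2 (0.01). The cause of these shifts was not tested. No pairing by replicate number was seen: the correlations of same-numbered deviations were -0.111 to 0.0661, and 1 of 5 WT mice correlated best with its own number. These values cannot exclude that same-numbered mice shared a litter or a processing step, which the labels do not give. With the replicate number as a block, 1998 genes were higher and 1751 lower, 2 of the 10 were higher (Meg3 with adjusted p = 0.0467 by edgeR), and the H19 to Igf2 difference of 0.39 had an adjusted exact p of 0.375; 5 pairs cannot give an exact p under the threshold. Over all named genes and fits, 530 of 558 values kept direction and side of the threshold, 20 lost the call, 8 gained it and 0 reversed. Levels per kb depend on the transcript length used, chosen after the data were seen. Counts bound what can be seen in Phlda2, Rasgrf1 and the untested neighbours.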

Other observations

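Imprinted genes with too few counts for the test were still read in some libraries. Dio3, the deiodinase gene at the far end of the Dlk1 cluster, had 7, 3, 10, 12 and 1 counts in WT mice and 18, 11, 15, 12 and 29 counts in KSR23 mice. Rtl1, a retrotransposon-derived gene of that cluster, had 3 to 9 counts in WT and 2 to 21 counts in KSR23 mice. Counts in this paragraph are not scaled to library size. The highest Dio3 and Rtl1 counts were both in KSR23 mouse 5, the library of most counts. Snrpn had 0 to 3 counts in every library, and Snurf, whose exons lie in the same transcript, was listed at 0. Reads that fit both gene models would be given to neither, so these counts need not reflect the RNA level. Adiponectin (Adipoq), a defining gene of fat cells, had 151, 176, 250, 27 and 73 counts in WT mice and 11, 116, 0, 31 and 0 counts in KSR23 mice, while Dlk1, known from preadipocytes, had at least 4999 counts in every mouse.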
